A study of Homo sapiens with 4 samples.

Results

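The 44 genes described here encode the glycolytic enzymes and the main genes that cells use to respond to low oxygen, measured in T24 cells with and without the catalytic domain of TET1. They were taken by gene symbol, by a rule that reads no measured value. The list was drawn up, however, with earlier results of these data known. All 44 genes were found among the 57879 genes of the files. The list holds 16 enzymes of glycolysis (HK1 to LDHA), 25 other known targets of the hypoxia-inducible factors (HIF), and the 3 HIF subunits HIF1A, EPAS1 and ARNT.

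RNAseq was performed on T24, an established human bladder carcinoma cell line, grown in RPMI medium with fetal calf serum. The control group was stably infected with a lentivirus carrying the empty vector, and the TET1-CD group with a lentivirus carrying the catalytic domain of TET1 behind a FLAG tag, with 2 libraries in each group. Both groups had been selected with puromycin, and neither the labels nor the methods give a low-oxygen treatment. Whether a group was a pool of infected cells or 1 clone, and whether its 2 libraries come from separate cultures, is not given in the sources used here, so the p-values measure only the spread between these libraries, which may be technical.

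TET1 oxidizes methylated cytosine in DNA, and its catalytic domain alone lacks the CXXC zinc finger of the whole protein. In cells with oxygen, the prolyl hydroxylases EGLN1 to EGLN3 mark the HIF alpha subunits for destruction. Without oxygen, the alpha subunits pair with ARNT and bind hypoxia response elements, whose core reads ACGTG or GCGTG, near genes for glucose uptake, glycolysis, vessel growth, matrix assembly, pH balance and mitophagy. Tumor cells often use much of this program in ordinary culture.

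The libraries held 20295260 and 17442136 fragments in the control group and 17507851 and 19533441 in the TET1-CD group. TET1, the gene introduced, had 111 and 83 counts in the control and 2939 and 3310 in the TET1-CD libraries, so it was higher in the libraries labelled TET1-CD (log2 fold change 5.02, standard error 0.08, adjusted p = 4.9e-10, edgeR's quasi-likelihood test). The keratins KRT7, KRT8 and KRT18 were abundant, while the uroplakins UPK1A, UPK1B, UPK2 and UPK3A, which mark the surface of the urothelium, had at most 6 counts in any library. Summed over 8 urothelial and epithelial markers, the counts were 47470 and 40285 in the control and 46495 and 51217 in the TET1-CD libraries, and KRT7, KRT18 and KRT19 were called higher. The 5 leukocyte markers had 37 and 44 counts in all in the control and 15 and 21 in the TET1-CD libraries, the 4 endothelial markers found had 12 and 16 against 17 and 26, and the 6 fibroblast markers had 110 and 88 against 294 and 346. Of these, PTPRC and CD3E (leukocytes) and COL1A2, PDGFRA and LUM (fibroblasts) had at most 4 counts in any library. TEK (endothelium) was at 0 in all 4 libraries. The leukocyte marker CD14 had 13 and 15 counts in the control and 8 and 12 in the TET1-CD libraries. CDH5 (endothelium) had 9 and 10 against 13 and 22, and PDGFRB (fibroblasts) 21 and 13 against 22 and 25. None of CD14, CDH5 and PDGFRB was called. COL1A1 was called higher (log2 fold change 1.89) and ITGAM lower (log2 fold change -2.19). The part of these markers in the results below was not tested. In bulk RNA, fewer cells with a transcript and less transcript per cell cannot be told apart.

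Most of the hypoxia and glycolysis genes had less RNA in the TET1-CD cells. All 44 passed the filter on low counts, and a gene was called when its adjusted p over the 14573 genes tested was under 0.05 in edgeR's quasi-likelihood test. With that rule 26 of the 44 were lower and 2 were higher (ALDOC and CA12), against a background of 9.61% lower and 10% higher among all genes tested (19.7% in either direction). The members called lower were 59.1% of the 44. The log2 fold change was negative for 39 members and positive for 5, against 49.8% negative among all genes tested. For 37 members both TET1-CD libraries lay below both control libraries, a pattern shown by 30.2% of all genes tested, for 5 both lay above (30.8% of all genes tested), and for 2 the groups overlapped. The median log2 fold change of the 44 was -0.34, against 0.001 for all genes tested.

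Many of these genes are highly expressed. Among the 6999 genes with a mean of at least 500 normalized counts (counts scaled to a common library size), 12% were called lower and 11.5% higher. Of the 44 genes, 36 reached that mean, and of these 24 were called lower and 0 higher by edgeR. A fold change of at least 2 together with an adjusted p under 0.05 was reached by 4 members, LOX, DDIT4, NDRG1 and PFKFB4, all lower, against 1.04% of all genes tested, and by 0 members in the other direction, against 2.72% of all genes tested.

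**Figure D1:**
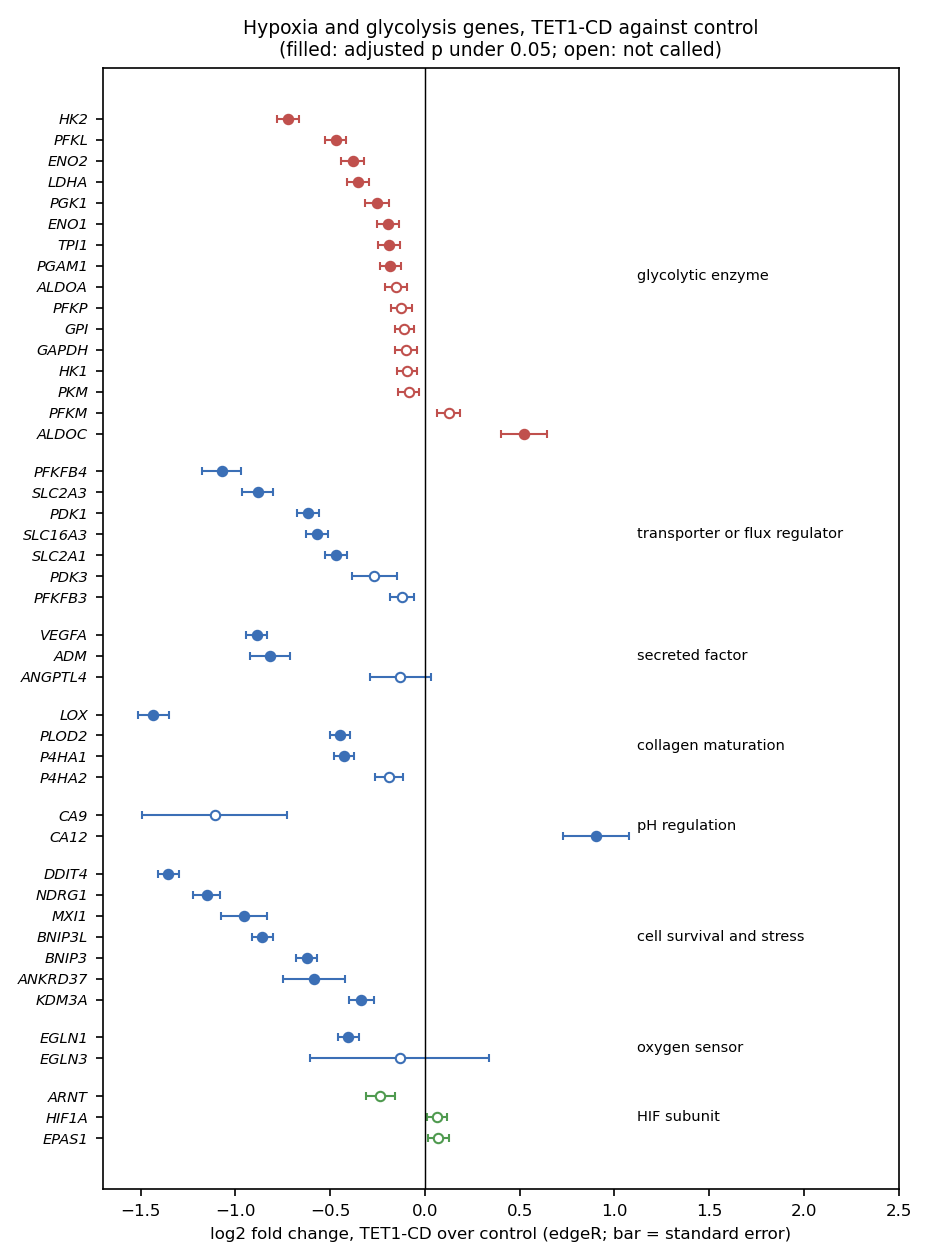
The log2 fold change of each of the 44 genes (x axis, TET1-CD over control, edgeR) is drawn by role, with bars for the standard error, filled points for adjusted p under 0.05 and open points for genes not called. All 7 genes of the cell survival and stress group lie left of 0, whereas ALDOC and CA12 are the filled points on the right.

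The median fall was smaller in the glycolytic enzymes than in the other HIF targets, a contrast that is described here and was not tested. The 16 glycolytic enzymes had a median log2 fold change of -0.17, with a range from -0.72 (HK2) to 0.52 (ALDOC), and 8 were lower, 1 was higher and 7 were not called. Over the 25 other HIF targets the median was -0.59, with a range from -1.43 (LOX) to 0.90 (CA12), and 18 were lower, 1 was higher and 6 were not called. Relative to the control mean of each gene, the median enzyme stood at -0.19 and -0.15 on the log2 scale in TET1-CD replicates 1 and 2, and at -0.03 and 0.03 in control replicates 1 and 2. The median of the other targets stood at -0.61 and -0.57 in the TET1-CD replicates, against -0.05 and 0.05 in the control replicates. Counting the 7 glucose and lactate transporters and flux regulators with the enzymes gave medians of -0.19 for the 23 genes and -0.61 for the 18 genes left.

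Some of the calls among the enzymes depended on having both TET1-CD libraries, and those of HK2, PFKL and ENO2 did not. Without TET1-CD replicate 1, 3 enzymes were called lower and none higher, and without TET1-CD replicate 2, 4 were called lower and none higher by edgeR (ALDOC was the enzyme that lost its higher call). Among all genes tested, the share called lower also fell, to 2.63% and 3.3%. Under the same omissions 16 of the other HIF targets were called lower each time.

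**Figure D2:**
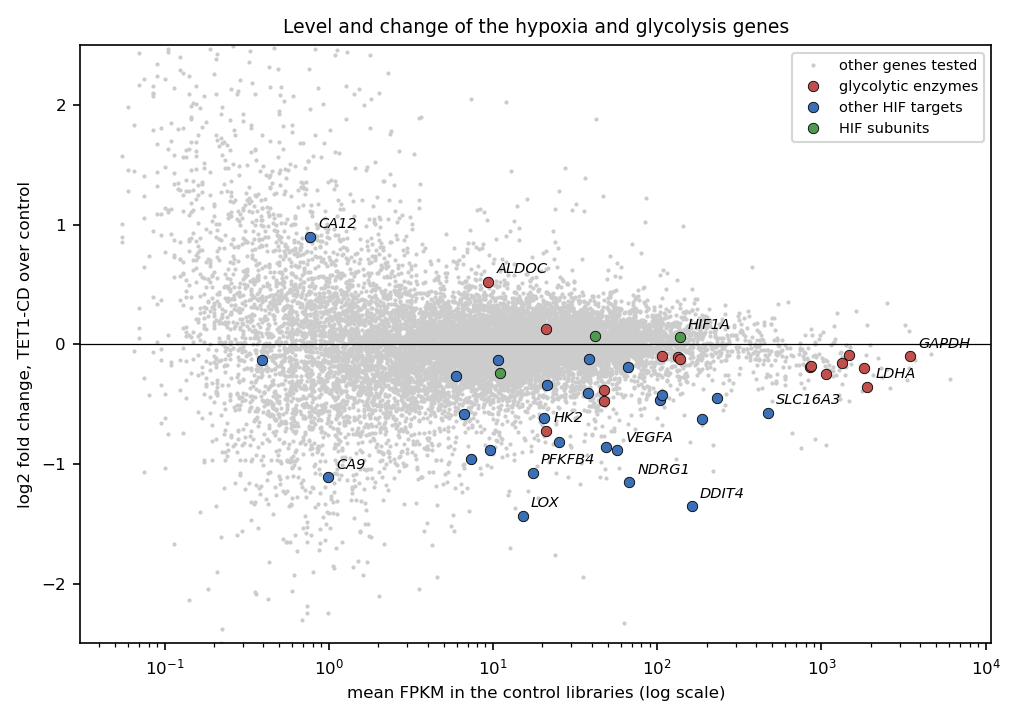
Each point is a gene, with its mean FPKM (fragments scaled to transcript length and library size) in the control libraries on a logarithmic x axis and its log2 fold change (TET1-CD over control) on the y axis. Grey points are 14394 genes tested, with 102 beyond the plotted fold changes and 77 of 0.05 FPKM or less not drawn. The glycolytic enzymes (red) sit mostly at high levels close to 0, and the other HIF targets (blue) at lower levels and further down.

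The levels of the 2 classes also differed per unit of transcript length. On the FPKM scale the median level in control cells was 496.8 for the enzymes and 25.1 for the other targets. GAPDH had the highest level of the 44 (3463 FPKM in control and 3255 in TET1-CD cells, means of 2 libraries), followed in control cells by LDHA (1893), ENO1 (1827) and PKM (1475). In TET1-CD cells LDHA stood at 1526 and ENO1 at 1611, so the order of these 2 enzymes turned. The lactate exporter SLC16A3, at 470.1 FPKM in control cells, was the most highly expressed target outside glycolysis. At the other end were CA9 (0.99 FPKM in control cells), CA12 (0.765) and EGLN3 (0.395). DDIT4 moved from place 12 to place 18 in the order of levels among the 44 genes, NDRG1 from 19 to 26 and VEGFA from 21 to 25. HIF1A moved from 14 to 11 as DDIT4, BNIP3 and PFKP dropped below it. Its own level was 136.7 FPKM in control and 142 in TET1-CD cells.

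Promoter windows were read for the members to show the HIF core in their sequence. Many of the genes are known as HIF targets through this core, so its share among them is a description and not independent of their choice. The windows run from 250 bases before to 50 bases after the start and come from RefSeq (GRCh38.p14). They were found for 40 of the 44 genes, as 72 windows, and not for VEGFA, SLC2A3, NDRG1 and BNIP3L. On either strand, ACGTG was present in a window of 25 genes (62.5%), against 32.5% of the 9852 tested genes with a window and 24.9% of all 27305 genes with one. Per window the shares were 43.1% for the members, 25.2% for the tested genes and 21.4% for all 35116 windows. ACGTG or GCGTG was present in 36 of the 40 genes (90%), against 70.4% of the tested genes and 52.4% of all genes. Members called lower held ACGTG in 15 of 22 genes (68.2%), and members not called in 9 of 16 (56.2%). ACGTG was present in 68.8% of the enzymes and 66.7% of the other HIF targets. Per window, the shares were 41.7% and 50% for ACGTG, and 61.1% and 81.2% for either core. For either core the share per window was 69.4% for all members and 60.4% for the tested genes, so the enzymes stood near the tested genes on this measure alone. Per gene, either core was present in 93.8% of the enzymes, 90.5% of the other HIF targets and 70.4% of the tested genes. The enzymes had 36 windows for 16 genes and the other HIF targets 32 for 21, which bears on a share per window. The median number of CpG dinucleotides in a window was 27.5 for the members, 25 for the tested genes and 14 for all windows.

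The stretches below show the core in the 2 members outside glycolysis with the largest falls (LOX and DDIT4), in 2 targets of mitophagy and stress (BNIP3 and ANKRD37), and in 2 glycolytic enzymes with small fold changes (PGK1 and GAPDH). Their log2 fold changes were -1.43 for LOX, -1.35 for DDIT4, -0.62 for BNIP3, -0.59 for ANKRD37, -0.25 for PGK1 and -0.10 for GAPDH. Each was matched to a single place in GRCh37, the build of the files, and is written 5′ to 3′ on the strand of its gene. Capitals mark ACGTG or GCGTG on this strand, or the same core read on the other strand as CACGT or CACGC. Where cores overlap, the capitals run together. A match is a run of letters and does not show that a factor binds there.
LOX, chr5:121412952-121413016, minus strand, in an intron of a longer transcript: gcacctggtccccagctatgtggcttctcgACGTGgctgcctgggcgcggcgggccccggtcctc
DDIT4, chr10:74033527-74033591, plus strand, ending 87 bases before the gene: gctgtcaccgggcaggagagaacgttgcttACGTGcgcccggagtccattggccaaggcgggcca
BNIP3, chr10:133795526-133795590, minus strand, ending 91 bases before the gene: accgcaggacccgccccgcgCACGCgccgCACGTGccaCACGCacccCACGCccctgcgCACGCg
ANKRD37, chr4:186317822-186317886, plus strand, in an intron of a longer transcript: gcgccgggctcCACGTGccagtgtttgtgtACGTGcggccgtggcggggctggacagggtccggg
PGK1, chrX:77359532-77359596, plus strand, in an intron of a longer transcript: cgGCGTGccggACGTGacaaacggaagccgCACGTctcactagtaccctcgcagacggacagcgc
GAPDH, chr12:6644320-6644384, plus strand, in an intron of a longer transcript: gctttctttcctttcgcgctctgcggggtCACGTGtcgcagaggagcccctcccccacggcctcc
In the BNIP3 and PGK1 stretches the core stands several times, and in the LOX, DDIT4 and GAPDH stretches at a single place.

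The HIF subunits are the factors themselves, and they are controlled mostly as proteins, which these data do not measure. HIF1A (chr14:62162231-62214976), the alpha subunit present in most cells, had 9515 and 9963 normalized counts in the control and 10240 and 10090 in the TET1-CD libraries. The TET1-CD values lay above the control values by less than the test could call (log2 fold change 0.06, 95% interval -0.06 to 0.18, adjusted p = 0.456, edgeR). EPAS1, the alpha subunit also known as HIF-2 alpha, had 4005 and 4002 in the control and 4346 and 4071 in the TET1-CD libraries. These groups also did not overlap, and the gene was not called (log2 fold change 0.07, 95% interval -0.05 to 0.19, adjusted p = 0.404, edgeR). ARNT, the common partner, had 901.5 and 863.3 normalized counts in the control and 712 and 786.7 in the TET1-CD libraries. Its TET1-CD libraries were the lower ones, and its test fell just short of the threshold (log2 fold change -0.24, standard error 0.08, adjusted p = 0.0531, edgeR). ARNT was called lower with no filter (adjusted p = 0.0292), with a replicate block (adjusted p = 0.0395) and without control replicate 2 (adjusted p = 0.0147) in edgeR. Over all alternatives its adjusted p ranged from 0.0147 to 0.448.

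Of the oxygen sensors, EGLN1, the main prolyl hydroxylase that marks HIF alpha and itself a HIF target, had 3390 and 3521 normalized counts in the control and 2595 and 2629 in the TET1-CD libraries. The groups were apart, and EGLN1 was lower by 24.4% (log2 fold change -0.40, standard error 0.05, adjusted p = 0.000807, edgeR). On the FPKM scale its log2 fold change was -0.20, and limma did not call it there (adjusted p = 0.119). EGLN3, a strongly oxygen-dependent member of the family, had 15 and 19 counts in the control and 9 and 22 in the TET1-CD libraries. Its groups overlapped, and the 95% interval of its log2 fold change ran from -1.19 to 0.92, so a change was not detectable at this depth.

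Glucose enters the cell through SLC2A1 and SLC2A3 (GLUT1 and GLUT3). SLC2A1 had 5020 and 5427 normalized counts in the control and 3805 and 3743 in the TET1-CD libraries. Both of its TET1-CD values were lower, by 27.7% on average (log2 fold change -0.47, standard error 0.06, adjusted p = 0.000485, edgeR). SLC2A3, a transporter of higher affinity with a near-identical copy in SLC2A14, had 657.9 and 661.5 in the control and 362.9 and 353.4 in the TET1-CD libraries. The control replicates were almost the same, and the TET1-CD pair stood 45.7% below them (log2 fold change -0.88, standard error 0.08, adjusted p = 8.49e-05, edgeR). SLC2A14 itself had at most 1 count in a library, but fragments shared by such copies cannot be assigned with certainty.

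Hexokinases trap glucose in the cell, and of the pair measured HK2 is the hypoxia-inducible form. HK2 (chr2:75061108-75120486) had 2334 and 2193 normalized counts in the control and 1397 and 1348 in the TET1-CD libraries. The groups were far apart, and HK2 had the largest fall of the 16 enzymes (39.4% lower, log2 fold change -0.72, standard error 0.06, adjusted p = 4.14e-05, edgeR). HK1, the form most tissues express all the time, had a log2 fold change of -0.09 and was not called (adjusted p = 0.224, edgeR). Within a library, the ratio of HK2 to HK1 counts was 0.324 and 0.307 in the control and 0.206 and 0.202 in the TET1-CD libraries.

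Phosphofructokinase commits sugar to glycolysis, and of its 3 subunits only PFKL was called. PFKL, the liver form, had 2499 and 2642 normalized counts in the control and 1869 and 1840 in the TET1-CD libraries. It was lower in both TET1-CD libraries, by 27.8% (log2 fold change -0.47, standard error 0.06, adjusted p = 0.000456, edgeR). PFKP, the platelet form, had a log2 fold change of -0.12 (adjusted p = 0.151, edgeR) and PFKM, the muscle form, one of 0.13 (adjusted p = 0.182, edgeR). The ratio of PFKL to PFKM counts was 2.42 and 2.65 in the control and 1.71 and 1.64 in the TET1-CD libraries.

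The PFKFB enzymes make and remove fructose 2,6-bisphosphate, which drives phosphofructokinase. PFKFB4 had 949.5 and 1141 normalized counts in the control and 461.9 and 529.6 in the TET1-CD libraries. Neither TET1-CD library came near the control range, and the fall was 2.10-fold (log2 fold change -1.07, standard error 0.10, adjusted p = 0.000102, edgeR). PFKFB3, at a higher level, had 2998 and 3203 against 2984 and 2719 normalized counts. Its values were apart by a small margin and it was not called (log2 fold change -0.12, 95% interval -0.26 to 0.02, adjusted p = 0.22, edgeR). The ratio of PFKFB4 to PFKFB3 counts was 0.317 and 0.356 in the control and 0.155 and 0.195 in the TET1-CD libraries.

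In the middle and lower steps of glycolysis the changes were small. TPI1, PGK1, PGAM1 and ENO1, which carry triose phosphates to phosphoenolpyruvate, were all lower, with log2 fold changes of -0.19, -0.25, -0.18 and -0.19 and adjusted p values of 0.0472, 0.0217, 0.0414 and 0.0412 (edgeR). All 4 calls were lost without TET1-CD replicate 1 and without TET1-CD replicate 2, where the lone TET1-CD library is assumed to vary like the controls. With each library left out in turn, their log2 fold changes stayed between -0.33 (PGK1) and -0.13 (TPI1). All 4 calls were also lost with limma on log2 FPKM, and those of TPI1 and PGAM1 with library sizes without factors. ENO2, the enolase of neurons and a HIF target in many cells, was lower by 23.3% (log2 fold change -0.38, standard error 0.06, adjusted p = 0.00196, edgeR) and kept its call in each of these fits. GPI and ALDOA, which act before the sugar is split, had log2 fold changes of -0.11 and -0.15 and were not called (adjusted p = 0.169 and 0.101, edgeR).

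GAPDH, used in many laboratories as a reference gene, had 88950 and 94060 normalized counts in the control and 84870 and 85880 in the TET1-CD libraries. The TET1-CD libraries were the lower pair, but the difference was not called (log2 fold change -0.10, 95% interval -0.23 to 0.03, adjusted p = 0.269, edgeR). Pseudogenes named after GAPDH number 58 in the files, and together they held at most 0.0218% of its counts in a library.

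ALDOC, the aldolase of brain, was the enzyme called higher as a gene. It had 265.8 and 343.1 normalized counts in the control and 433.1 and 439.1 in the TET1-CD libraries. The control values were widely spread, and both TET1-CD values lay above them (log2 fold change 0.52, standard error 0.12, adjusted p = 0.0143, edgeR). The call was lost without TET1-CD replicate 1 (adjusted p = 0.0916) and without TET1-CD replicate 2 (adjusted p = 0.0951). ALDOC stayed a small fraction of aldolase, as the ratio of ALDOC to ALDOA counts was 0.0107 and 0.0126 in the control and 0.0186 and 0.0185 in the TET1-CD libraries. Its transcripts did not move together. ENST00000226253, with most counts in the control, had estimated counts of 172.6 and 161.9 there and 141.8 and 88.8 in the TET1-CD libraries. ENST00000395321 had 80.6 and 138.7 against 174.9 and 306.7. Neither was called (adjusted p = 0.702 and 0.501, edgeR), and estimates for overlapping transcripts are uncertain.

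Pyruvate kinase makes pyruvate, and its fate is set in part by lactate dehydrogenase and the PDK enzymes downstream. PKM was not called (log2 fold change -0.09, 95% interval -0.21 to 0.04, adjusted p = 0.329, edgeR). Its M2 form, the form of growing cells, carries the exon at chr15:72494795-72494961, and transcripts with this exon had 98.6% and 98.6% of the counts of both forms in the control and 98.9% and 98.8% in the TET1-CD libraries. The M1 form, with the exon at chr15:72495363-72495529, had the remaining 1.37%, 1.36%, 1.10% and 1.17% in the same order. The M2 form was therefore nearly all of PKM in every library.

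LDHA, which turns pyruvate into lactate, had 56960 and 59600 normalized counts in the control and 44760 and 46500 in the TET1-CD libraries. The groups were well apart and LDHA was lower by 21.7% (log2 fold change -0.35, standard error 0.06, adjusted p = 0.00254, edgeR), a call that was lost without TET1-CD replicate 1 (adjusted p = 0.125). The ratio of LDHA to LDHB counts, the 2 subunits of the enzyme, was 4.66 and 4.99 in the control and 3.39 and 3.32 in the TET1-CD libraries. SLC16A3 (MCT4), the exporter of lactate from glycolytic cells, had 15640 and 17080 normalized counts in the control and 11050 and 10970 in the TET1-CD libraries. It was lower in both TET1-CD libraries, by 32.7% (log2 fold change -0.57, standard error 0.06, adjusted p = 0.000156, edgeR). PDK1, the kinase that shuts pyruvate dehydrogenase in hypoxia, had 1666 and 1619 in the control and 1077 and 1067 in the TET1-CD libraries. Each pair was tight and PDK1 was 34.7% lower (log2 fold change -0.62, standard error 0.06, adjusted p = 9.43e-05, edgeR). PDK3, at 5.99 FPKM in control cells against 20.5 for PDK1, had a log2 fold change of -0.27 and was not called (adjusted p = 0.152, edgeR).

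**Figure D3:**
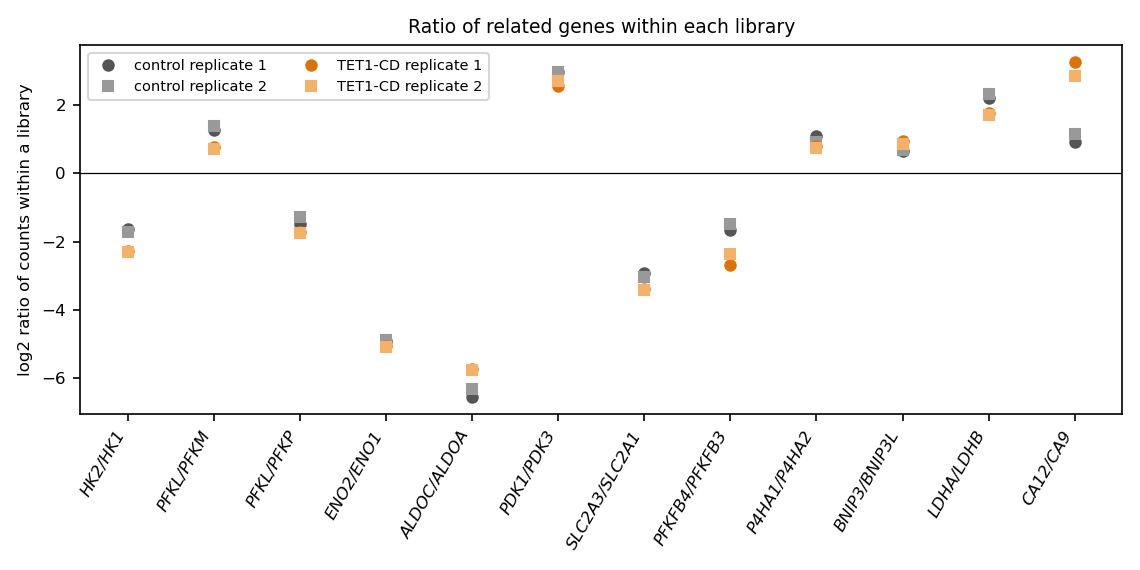
For 12 pairs of related genes (x axis), the log2 ratio of their counts within each library is drawn (y axis), with grey points for the 2 control and orange points for the 2 TET1-CD libraries. The ratio of HK2 to HK1, of PFKFB4 to PFKFB3 and of LDHA to LDHB is lower in both TET1-CD libraries, and that of ALDOC to ALDOA and of CA12 to CA9 is higher.

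Among the secreted factors, VEGFA (chr6:43737921-43754224), the main growth factor for blood vessels, had 3104 and 3257 normalized counts in the control and 1698 and 1740 in the TET1-CD libraries. Its groups did not overlap and the fall was 45.9%, with a log2 fold change of -0.89 (adjusted p = 6.64e-06, edgeR). The transcript with most counts, ENST00000372067, held 54.9% and 54.6% of the gene's counts in the control and 45.7% and 47.2% in the TET1-CD libraries. Its estimated counts were 1847 and 1647 against 729 and 862, while those of the shorter coding form ENST00000372077 were 510 and 569 against 417 and 428. Neither transcript was called by edgeR (adjusted p = 0.0959 and 0.582 over all transcripts), and estimates for overlapping transcripts are uncertain.

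ADM, adrenomedullin, a vessel-widening peptide, had 645.9 and 796.4 normalized counts in the control and 403.3 and 414.3 in the TET1-CD libraries. The control replicates were further from each other than the TET1-CD replicates, and the groups stayed apart (log2 fold change -0.82, standard error 0.11, adjusted p = 0.000719, edgeR). ANGPTL4, an inhibitor of lipoprotein lipase, had 300.8 and 433.8 against 365 and 304.8 normalized counts. Its groups overlapped and it was not called (log2 fold change -0.13, 95% interval -0.49 to 0.23, adjusted p = 0.626, edgeR), but without control replicate 1 it was called lower (log2 fold change -0.39, adjusted p = 0.0226).

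The enzymes of collagen maturation held the largest fall of the 44. LOX (chr5:121398890-121413980), lysyl oxidase, which links collagen fibers outside the cell, had 1138 and 1290 normalized counts in the control and 457.6 and 441 in the TET1-CD libraries. The TET1-CD libraries were close to each other and far below the control, a fall of 2.70-fold (log2 fold change -1.43, standard error 0.08, adjusted p = 3.46e-06, edgeR). PLOD2, a lysyl hydroxylase, had 16160 and 15630 in the control and 11840 and 11480 in the TET1-CD libraries. It was 26.6% lower with no overlap (log2 fold change -0.45, standard error 0.05, adjusted p = 0.000402, edgeR). P4HA1, a subunit of the collagen prolyl hydroxylase, had 5572 and 5739 in the control and 4231 and 4187 in the TET1-CD libraries. The pairs were apart and P4HA1 was 25.6% lower (log2 fold change -0.43, standard error 0.05, adjusted p = 0.000472, edgeR). Its relative P4HA2 had a log2 fold change of -0.19 and was not called (adjusted p = 0.101, edgeR), and it was called lower with no filter (adjusted p = 0.0193) and without control replicate 1 (adjusted p = 0.00042). COL1A1, a fibroblast marker and a substrate of these enzymes, was among the genes called higher, as given above.

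The pair of carbonic anhydrases that HIF controls had fold changes of opposite sign at low levels. CA9, a classic hypoxia marker, had 34 and 23 counts in the control and 10 and 16 in the TET1-CD libraries. The TET1-CD values were the lower ones, but with so few counts the log2 fold change of -1.11 had a 95% interval from -1.96 to -0.26 and the gene was not called (adjusted p = 0.0696, edgeR). It was called with no filter (adjusted p = 0.0397) and with a filter of 10 counts in every library (adjusted p = 0.0438). CA12 had 64 and 51 counts in the control and 96 and 117 in the TET1-CD libraries, which is 59.1 and 55 against 102.2 and 111.4 normalized counts. Both TET1-CD libraries were above the control libraries and CA12 was called higher (log2 fold change 0.90, standard error 0.18, adjusted p = 0.0064, edgeR). DESeq2 did not call it (adjusted p = 0.0879), nor did edgeR without TET1-CD replicate 2 (adjusted p = 0.0699) or limma on log2 FPKM (adjusted p = 0.0524).

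All 7 members in the group of cell survival and stress were lower. DDIT4 (chr10:74033678-74035794), also known as REDD1, an inhibitor of mTORC1, had 5064 and 5409 normalized counts in the control and 2055 and 2041 in the TET1-CD libraries. The TET1-CD values were almost the same, and the fall of 2.56-fold had the smallest p of the 44 genes (log2 fold change -1.35, standard error 0.06, adjusted p = 3.06e-07, edgeR). NDRG1 (chr8:134249414-134314265), a stress-responsive gene linked to differentiation, had 3179 and 3666 in the control and 1528 and 1552 in the TET1-CD libraries. Its control replicates differed more than its TET1-CD replicates, and the groups were 2.22-fold apart (log2 fold change -1.15, standard error 0.07, adjusted p = 6.42e-06, edgeR).

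BNIP3 and BNIP3L are receptors on mitochondria that lead to mitophagy. BNIP3 had 4016 and 4269 normalized counts in the control and 2731 and 2643 in the TET1-CD libraries. Its groups were apart by 35.1% (log2 fold change -0.62, standard error 0.06, adjusted p = 6.75e-05, edgeR). BNIP3L (NIX) had 2565 and 2652 in the control and 1415 and 1462 in the TET1-CD libraries. All pairs were tight and BNIP3L was 44.8% lower (log2 fold change -0.86, standard error 0.06, adjusted p = 8.39e-06, edgeR). The ratio of BNIP3 to BNIP3L counts was 1.57 and 1.61 in the control and 1.93 and 1.81 in the TET1-CD libraries.

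MXI1, which competes with MYC for its partner MAX, had 308.2 and 360.4 normalized counts in the control and 178.8 and 165.7 in the TET1-CD libraries. It was lower in both TET1-CD libraries, by 48.4% (log2 fold change -0.95, standard error 0.12, adjusted p = 0.000603, edgeR). ANKRD37, a small ankyrin repeat gene, had 145 and 110 counts in the control and 72 and 96 in the TET1-CD libraries, which is 133.8 and 118.7 against 76.6 and 91.4 normalized counts. The groups did not overlap, and the call rested on few counts (log2 fold change -0.59, standard error 0.16, adjusted p = 0.0322, edgeR). It was lost with DESeq2 (adjusted p = 0.294) and without TET1-CD replicate 1, TET1-CD replicate 2 or control replicate 1 (adjusted p between 0.0779 and 0.257, edgeR). KDM3A, a histone H3K9 demethylase, was lower by 20.8% (log2 fold change -0.34, standard error 0.07, adjusted p = 0.0064, edgeR), and lost its call without TET1-CD replicate 1 (adjusted p = 0.113) or TET1-CD replicate 2 (adjusted p = 0.0587).

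**Figure D4:**
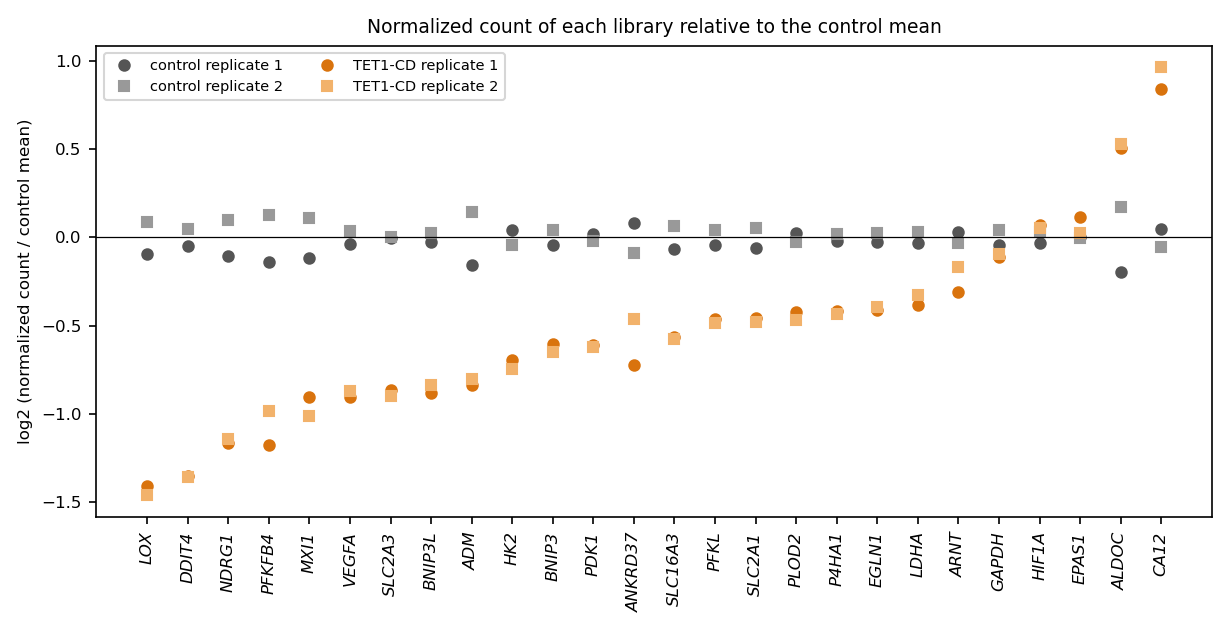
For 26 of the genes given library by library (x axis), the y axis shows the log2 ratio of the normalized count to the control mean, with grey points for the control and orange points for the TET1-CD libraries. In LOX, DDIT4, NDRG1 and PFKFB4 the TET1-CD points lie near or below -1, in ADM and ALDOC the control points are spread widest, and only in ALDOC, CA12, HIF1A and EPAS1 are the TET1-CD points the higher ones.

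The falls were seen in the main transcript of several genes. Of 528 transcripts listed for the 44 genes, 202 could be tested. edgeR called 0 of them lower and 0 higher at an adjusted p under 0.05, in a test that called 0% of 43213 transcripts lower and 0.00231% higher. At an unadjusted p under 0.05, 59 of the 202 were lower and 6 higher in edgeR. DESeq2 called 36 lower and 4 higher. The shares of all transcripts at the unadjusted threshold and in DESeq2 are not given here. These counts are therefore not read as a result about the members. DDIT4 was carried almost wholly by ENST00000307365 (98.7% and 99.3% of its counts in the control and 99.3% and 98.9% in the TET1-CD libraries), BNIP3 by ENST00000368636 (95.9% to 96.8% over the 4 libraries) and NDRG1 by ENST00000323851 (93.8% to 95.5%). For LOX, ENST00000231004 held 89.3% to 92.1%. The log2 fold changes of these main transcripts were -1.35 (DDIT4), -0.61 (BNIP3), -1.14 (NDRG1) and -1.45 (LOX), and edgeR called none of them (adjusted p between 0.066 and 0.174). Of the 4 transcripts that DESeq2 called higher, 3 belong to ALDOA, which was not called as a gene. Their estimated counts were 411 and 439 in the control against 1830 and 2227 in the TET1-CD libraries for ENST00000563060 (adjusted p = 7e-56, DESeq2), 189 and 162 against 679 and 817 for ENST00000338110 (adjusted p = 1.99e-39), and 0 and 0 against 68 and 13.5 for ENST00000562168 (adjusted p = 0.00258). edgeR called none of the 3 (adjusted p = 0.0963, 0.0698 and 0.32), and counts divided among overlapping transcripts are uncertain. The fourth is the HIF1A transcript ENST00000394997, which held 27.3% and 24.3% of the counts of its gene in the control and 29.7% and 29.5% in the TET1-CD libraries, and DESeq2 called it higher (adjusted p = 0.00322) where edgeR did not (adjusted p = 0.273).

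Beyond the 44 genes, the pathway was followed in further lists, whose genes are named only where they had the smallest p. The lists were chosen with earlier results of these data known, so their shares are a description and not independent of that knowledge. Of 38 further HIF targets 36 were tested, and 23 were lower (63.9%) and 2 higher (5.56%), with a median log2 fold change of -0.44, against 9.61% lower and 10% higher among all genes tested. ZNF395 had a log2 fold change of -0.90 (adjusted p = 2.59e-05, edgeR) and AK4, a mitochondrial adenylate kinase, one of -0.73 (adjusted p = 4.38e-05, edgeR). Of 16 regulators of the HIF pathway 15 were tested, with a median log2 fold change of 0.05. edgeR called 0 of these lower, and the chaperone HSP90AA1 was the gene called higher (log2 fold change 0.26, adjusted p = 0.00984, edgeR).

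Neighboring routes of sugar use were read against the same background of 9.61% lower and 10% higher. In the pentose phosphate pathway, which makes NADPH and ribose from glucose 6-phosphate, 3 of 7 genes tested (42.9%) were higher and 0 lower by edgeR, with a median log2 fold change of 0.09. TALDO1, transaldolase, was among those higher (log2 fold change 0.28, adjusted p = 0.00496, edgeR), as was RPIA, which interconverts pentose phosphates (0.38, adjusted p = 0.00923, edgeR). Of the 12 other isoenzymes and transporters of glycolysis tested, 2 were lower (SLC16A1 among them, log2 fold change -0.23) and 2 higher (PFKFB2, 0.40, and TIGAR, listed as C12orf5, 0.30), with a median of 0.12. That is 16.7% in each direction. Of the 11 genes of pyruvate dehydrogenase and its carriers, the subunit PDHA1 was higher (0.19) and the phosphatase PDP1 lower (-0.22), with a median of 0.06, and this share of 9.09% in each direction is close to the background. In the VEGF family and its receptors, 5 genes were tested and PGF, placental growth factor, was the gene called. PGF had 86.7 and 75.5 normalized counts in the control and 295.9 and 266.7 in the TET1-CD libraries, a log2 fold change of 1.79 (adjusted p = 2.36e-05, edgeR), opposite in sign to VEGFA.

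**Figure D5:**
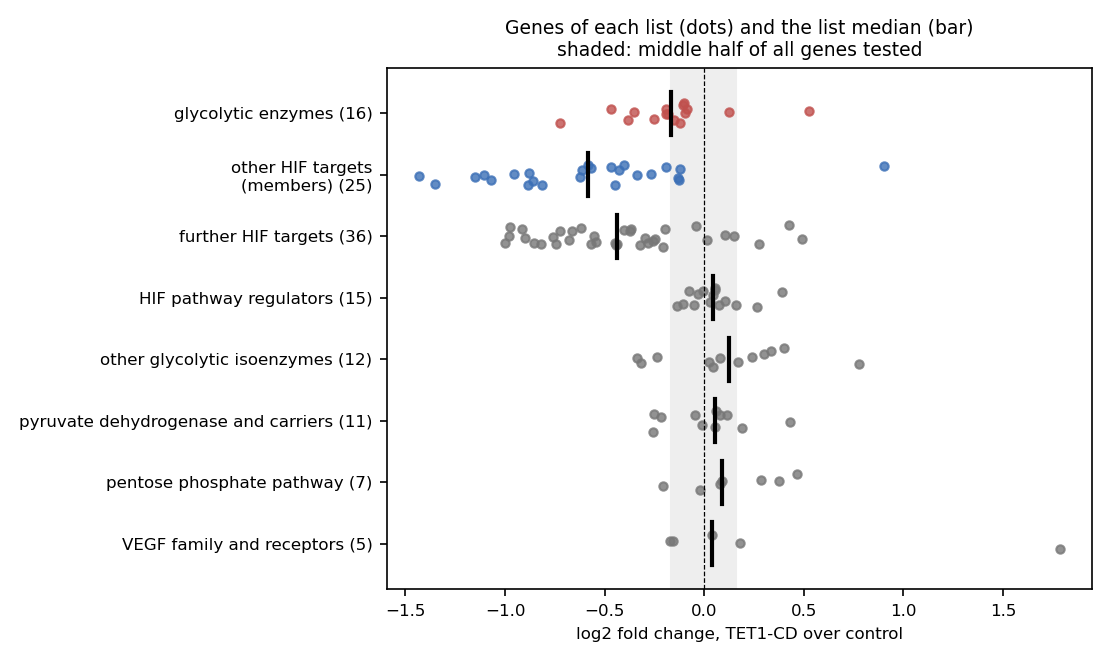
Each dot is a tested gene of the list named on the y axis, placed by its log2 fold change (x axis, TET1-CD over control), the thick bars are list medians, and the shaded band spans the quartiles of all genes tested (-0.17 to 0.16). The medians of the other HIF targets (-0.59) and of the further HIF targets (-0.44) lie left of the band, that of the glycolytic enzymes (-0.17) lies at its edge, and those of the remaining lists lie between 0.04 and 0.12.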

How the data were processed

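Poly(A) or rRNA-depleted RNA of 2 control and 2 TET1-CD libraries of T24 cells was sequenced on an Illumina HiSeq instrument. The authors deposited, for each of 195700 transcripts, an expected count (an estimated number of fragments that need not be whole) and an FPKM value (scaled to transcript length and library size), with hg19 (GRCh37) coordinates. The submitters' processing notes name cutadapt 1.9.1, HISAT2 2.0.1, HTSeq 0.6.1 and DESeq2. Which program made the estimates per transcript is not given in the sources used here, nor whether the counting used strand.

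Here the expected counts were summed per gene identifier and rounded. TET1-CD was compared with control by edgeR 4.0.16 under R 4.3.3, with its quasi-likelihood test (glmQLFit and glmQLFTest), TMM factors, the filter filterByExpr and no block. The model was fitted on all 14573 genes that passed the filter, with Benjamini-Hochberg adjustment over all of them. The standard error was obtained from the F statistic (log2 fold change over its root), and the 95% interval uses the t distribution with the test's degrees of freedom. TMM factors were 0.993 to 1.005. With 2 libraries per group, the spread of a gene is borrowed from all genes. The test was tried on simulated data. FPKM values were summed per gene and used for levels, and for an alternative with limma 3.58.1 on log2(FPKM + 0.1). DESeq2 1.42.0, limma-voom, RLE factors, library sizes without factors, omission of the filter, a filter of 10 counts in every library, a replicate block, other thresholds, added pseudogene counts and the omission of each library were the other alternatives.

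The 44 genes and all lists were chosen with earlier results of these data known. Values in each library are given for members with adjusted p under 0.05 and an absolute log2 fold change of at least 0.4, and for HIF1A, EPAS1, ARNT, SLC2A1, GAPDH and LDHA. PFKFB3, ANGPTL4, CA9 and EGLN3 are given so as well, and were picked after their values were seen. So were the transcripts named for VEGFA, ALDOA, ALDOC and HIF1A beside the most abundant. From each further list at most 3 called genes with the smallest p are named, and PGF is given by library among them. The values of a few genes of these lists are not reported here. The replicate numbers were not used to pair the libraries. The deviations of same-numbered libraries had a correlation of 0.00713 over 14573 genes and 0.0504 over the 7286 genes above the median level. Such a correlation cannot show whether same-numbered libraries were prepared together. Counts of replicates differed by more than sampling noise (chi-square per gene 6.41 within control, 2.75 within TET1-CD, 17.6 to 21.4 between groups). PECAM1 was not matched among the endothelial markers. Pseudogenes named after a member held at most 0.587% of its counts. No set test and no p over the members was computed.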

Additional observations from a re-analysis of the deposited data

How the results depend on the processing

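Of the 28 genes called, all 28 kept their direction under the 13 alternatives tried for single genes, 18 stayed called in each of them, and 10 lost the call in at least 1, 9 of them when a library was left out. Of the 16 genes not called, 8 were called under at least 1 alternative. The cause was not tested. Leaving out each library in turn gave 19 to 30 members lower and 0 to 2 higher, 3 to 10 glycolytic enzymes lower and 0 to 1 higher, 16 to 20 other HIF targets lower and 0 to 1 higher. Calls over all genes, in both directions, also fell without either TET1-CD library and rose without either control library. The ends of these ranges are therefore not a result about the members alone. The median log2 fold change ranged over these omissions from -0.22 to -0.15 for the enzymes, and from -0.0033 to 0.0039 for all genes tested. That of the other HIF targets moved by less than the spread between replicates. With a fold change of at least 2 required as well, 4 members were lower and 0 higher, namely 0 enzymes lower and 0 higher, and 4 other HIF targets lower and 0 higher. DESeq2 called 1 member higher and 0 of the other HIF targets higher. The median of all genes tested was -0.0011 with DESeq2, 0.0069 with no filter and 0.013 with library size only. On single transcripts of the members DESeq2 called 36 lower and 4 higher, where edgeR called 0. The share that DESeq2 called over all transcripts is not given here.

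Over all genes, edgeR called 2865, DESeq2 1473 and limma on FPKM 1595 (with 60.6% of its calls higher, against 51.1%). Without TET1-CD replicate 1 the calls numbered 832 and without TET1-CD replicate 2 they numbered 1014. With the replicate number as a block, 27 members were lower and 2 higher, and 3235 genes were called, of which 2819 were among the 2865. The block changed the call of ARNT alone among the 44 genes. For ARNT the adjusted p ranged from 0.0147 to 0.448 over the alternatives. CA9, EGLN3, ANKRD37, CA12 and the marker genes with few counts are limited by depth, and intervals cover the spread between 2 libraries per group only.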
